A study of Mus musculus with 4 samples.

Results

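The genes described here are the Wnt ligands, the Frizzled receptors with their co-receptors Lrp5 and Lrp6, the secreted Wnt antagonists of the Dkk and Sfrp families with Wif1, and the feedback gene Axin2. A rule on gene symbols, which uses no measured value itself, gave 41 genes (19 Wnt, 10 Fzd, 2 Lrp, 4 Dkk, 4 Sfrp, Wif1 and Axin2) of the 20140 genes named on the arrays, and all 41 had a probe. Total RNA was labelled with Cy3 and hybridised to 4 Agilent mouse arrays of 1 slide, 1 array for each group: AB1-HA cells with vehicle, AB1-HA cells with IFN-γ, LLC cells with vehicle and LLC cells with IFN-γ, all for 24 h. AB1-HA is a mesothelioma line from BALB/c mice and LLC (titled 3LL) a lung carcinoma line from C57BL/6 mice (labelled C57BL6). IFN-γ is a cytokine of activated lymphocytes that induces antigen presentation genes. Neither a dose nor a number of cultures is given in the sources used here.

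Wnt proteins are lipid-modified secreted ligands that bind Frizzled receptors. Together with Lrp5 or Lrp6 they stop the destruction of β-catenin, which then acts with TCF/LEF factors on target genes such as Axin2. Other Wnt ligands, Wnt5a and Wnt11 among them, signal largely without β-catenin, through receptors such as Ror2 and through the planar polarity proteins. Dkk1 blocks the pathway by binding Lrp5 and Lrp6, whereas the Sfrp proteins and Wif1 bind the ligands themselves.

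With 1 array a group there was no spread between samples, so no difference here carries a test or a p-value. Signals are background-subtracted intensity units of 1 array. Differences are log2 values after each array was scaled to its 75th percentile over gene probes, which lay between 1380.2 and 1597.6 intensity units. Genes are called higher or lower from 2-fold upward, which is a rule about size and says nothing of statistical significance. Where a gene was well above background, by the scanner's mark, on 1 of the arrays compared, the difference is a bound, written "at least". It was taken against the higher of the gene's own dim signal and the lowest signal that carried the scanner's mark there, between 7.01 and 8.26 intensity units. Each member probe has 1 spot per array, so its error is known only from the scanner's estimate. For members above background this error had a median of 10.0% to 10.1% of the signal. The largest error of a member on an array was 30.6% to 38.2%, and errors were large for dim members. Wnt11 in AB1-HA with IFN-γ, for example, had 10.6 intensity units with an error of 3.73. The IFN-γ treatment was seen on the arrays of both lines, with Irf1, a transcription factor gene that IFN-γ induces, 4.44 higher on the log2 scale in AB1-HA and 4.43 in LLC. Of 10 mesothelial markers, Msln (50299 intensity units with AB1-HA vehicle, 154 with LLC vehicle), Pdpn and Krt19 were brighter in AB1-HA and Krt8 and Krt18 in LLC, while the defining markers Wt1, Upk3b, Upk1b, Lrrn4 and Calb2 were not well above background on any array. Of 9 lung epithelial markers, Nkx2-1, Sftpa1, Sftpb, Sftpc, Epcam and Cdh1 were not well above background on any array, and Sftpd, Scgb1a1 and Krt7 were dim. Among leukocyte genes, Ptprc and Lyz2 were not well above background on any array, although the probes used for Cd3e, Itgam and Csf1r were on all 4. In RNA from whole cultures, a smaller share of cells with a transcript and less of it per cell cannot be told apart.

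Of the 41 genes, 24 had a measurable signal on at least 1 array. On the AB1-HA arrays 17 (vehicle) and 18 (IFN-γ) were well above background, and on the LLC arrays 21 and 19, where 64.1%, 64.9%, 65.5% and 65.3% of all named genes were. Over all genes, 70.5% were well above background on at least 1 array, and 15 members were on all 4 (59.5% of all genes). Axin2 and Dkk3 were measured on both AB1-HA arrays and neither LLC array, a pattern of 2.34% of all genes, and Wnt7b, Fzd1, Fzd6 and Fzd9 on both LLC arrays and neither AB1-HA array, a pattern of 3.47%. The 17 without a measurable signal on any array were 10 ligands (Wnt2, Wnt2b, Wnt3, Wnt3a, Wnt4, Wnt6, Wnt7a, Wnt8a, Wnt8b and Wnt9b), the receptors Fzd3 and Fzd10, and the antagonists Dkk4, Sfrp1, Sfrp2, Sfrp4 and Wif1. Their signals lay between 1.49 and 8.05 intensity units. Of 9 secreted antagonists, Dkk2 was the one measured on all 4 arrays. The plot of member signals shows the 24 genes in order of their roles.

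**Figure D1:**
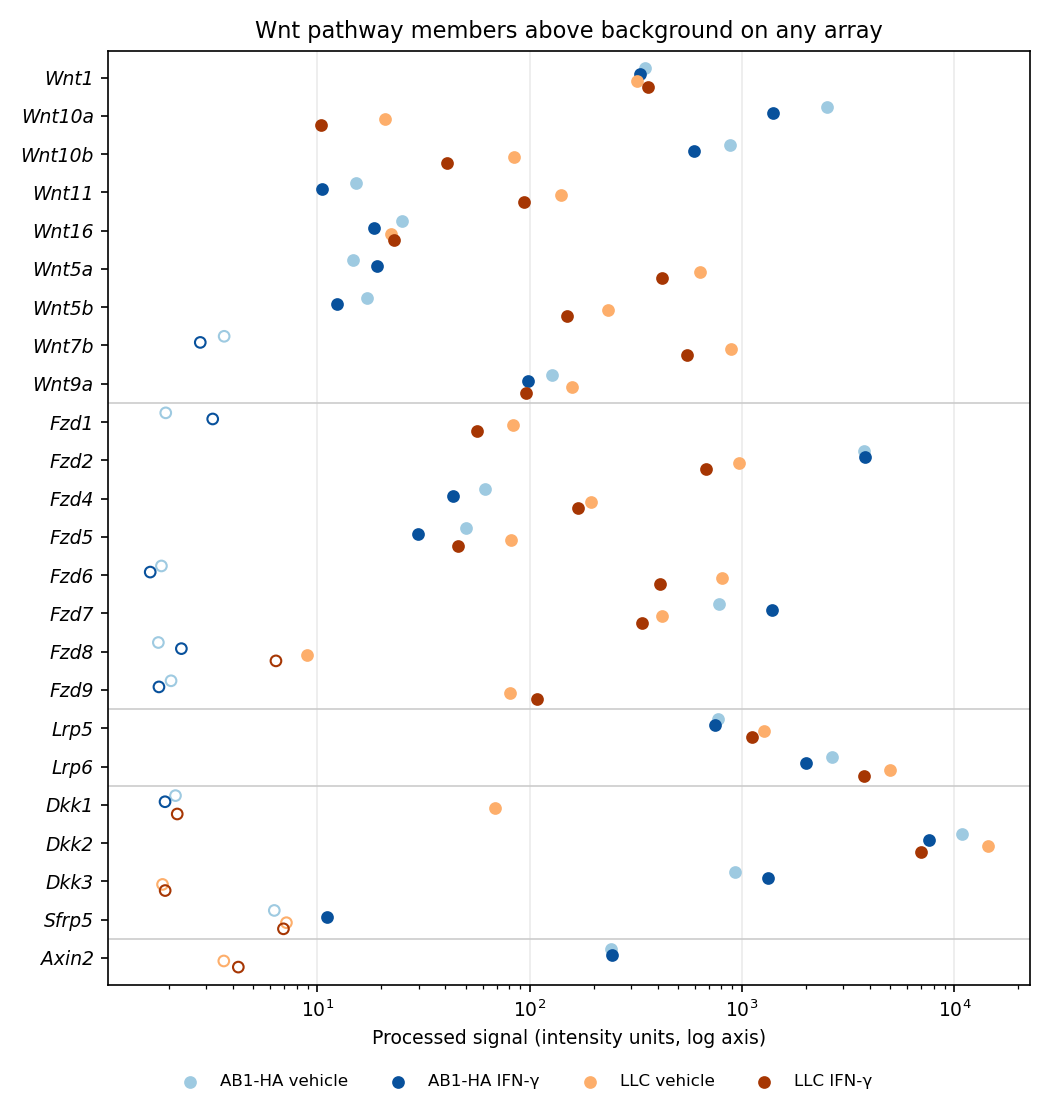
Processed signal (x axis, intensity units, log scale) of the 24 members that were well above background on at least 1 of the 4 arrays, 1 point for each array and no error bars because each group has 1 array. Filled points were well above background and open points were not; signals of different genes come from different probes and are not comparable. Wnt7b, Fzd1, Fzd6 and Fzd9 are filled in LLC alone, Dkk3 and Axin2 in AB1-HA alone, and Dkk1 on the LLC vehicle array alone.

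The ligands separated the lines. Wnt10a, a β-catenin ligand of skin and teeth, had signals of 2519.8 and 1399 in AB1-HA (vehicle, IFN-γ) and 20.8 and 10.4 in LLC. Wnt10b, which holds back fat cell formation, had 874 and 595 in AB1-HA and 84.4 and 40.7 in LLC. Both AB1-HA arrays were thus above both LLC arrays for these 2 genes. The reverse held for 4 ligands. Wnt5a, the best studied ligand of the β-catenin-independent route, had 14.7 and 19.0 intensity units in AB1-HA and 634 and 421 in LLC. Its relative Wnt5b had 17.1 and 12.4 in AB1-HA and 234 and 149 in LLC. Wnt11, which guides cell movements in the vertebrate embryo, had 15.2 and 10.6 in AB1-HA and 141 and 94.3 in LLC. Wnt7b, a ligand of the developing lung epithelium, was not well above background in AB1-HA (3.64 and 2.81) and had 884 and 554 in LLC. All 4 were high on both LLC arrays and low or unmeasured on both AB1-HA arrays. The other measured ligands Wnt1, Wnt9a and Wnt16 lay within 2-fold between the lines, at log2 differences of −0.34, 0.10 and −0.38 with vehicle. Wnt1 and Wnt16 each have another probe that was not well above background on any array, so their signals rest on 1 probe of 2.

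Receptors differed between the lines as well. Fzd6, a receptor that orients hairs in mouse skin, was not well above background in AB1-HA (1.84 and 1.63) and had 807 and 410.4 in LLC. Fzd1 (83.2 and 56.3) and Fzd9 (80.4 and 108) were also measured in LLC, and in AB1-HA they were at 1.80 to 3.22, not well above background. Fzd4, which also serves as the receptor for Norrin in retinal vessels, had 61.9 and 43.5 in AB1-HA and 194 and 168 in LLC. These 4 receptors were thus high on both LLC arrays. Fzd2 and Fzd7 were brighter in AB1-HA: Fzd2 had 3758 and 3807 there and 969.5 and 676 in LLC. Fzd7 had 781 and 1382 in AB1-HA and 419.6 and 338 in LLC. With vehicle the direction for Fzd2 rests on 1 probe, since its other probe had a log2 difference of 0.58 in the opposite direction. On the IFN-γ arrays that other probe was also lower in LLC, at −0.39, short of 2-fold. Both probes of Fzd7 were lower in LLC (−1.11 and −3.16). Fzd5 had a log2 difference of 0.49 between the vehicle arrays by the probe used and −0.27 by its other probe. Fzd8 was well above background on the LLC vehicle array alone, at 8.95 intensity units. The co-receptors were measured in both lines. Lrp5 had 775 and 749 in AB1-HA and 1269.6 and 1110.2 in LLC, and Lrp6 had 2665 and 1997 against 4956 and 3749.7. Neither differed by 2-fold between the lines.

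Axin2, a scaffold of the β-catenin destruction complex that β-catenin itself induces, was measured in AB1-HA alone. Its signals were 240.3 and 243 there and 3.63 and 4.25, not well above background, in LLC. A dimmer probe of Axin2 had 24.5 and 9.73 in AB1-HA and was not well above background in LLC. Dkk3, a divergent Dkk family member that does not share the Lrp-binding role of Dkk1, had 923 and 1328 in AB1-HA and 1.87 and 1.92, not well above background, in LLC. Dkk2, which binds Lrp6 as Dkk1 does, was bright everywhere, with 10879 and 7622 in AB1-HA and 14380.3 and 6976 in LLC. Dkk1 was well above background on 1 array, that of LLC with vehicle, at 68.7 intensity units with a scanner error of 7.19. It had 2.19 on the LLC array with IFN-γ and 2.15 and 1.92 in AB1-HA, none of them well above background. Sfrp5 was well above background on the AB1-HA array with IFN-γ alone, at 11.1 intensity units against 6.27 with vehicle.

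Expressed as differences, 9 members were at least 2-fold higher in LLC than in AB1-HA on the vehicle arrays and 6 were at least 2-fold lower, out of 22 with a value. The corresponding shares over the whole array were 16.4% higher and 16% lower, or 32.5% in either direction. Of these 15 members, 7 (Axin2, Dkk1, Dkk3, Fzd1, Fzd6, Fzd9 and Wnt7b) have a value only because 1 line is above background, so the count is a description and lends no weight to a contrast with all genes. The measured differences ran from −7.13 for Wnt10a to 5.22 for Wnt5a on the log2 scale, with Wnt10b at −3.58, Wnt5b at 3.56, Wnt11 at 3.00, Fzd2 at −2.17 (−0.79, short of 2-fold, as the mean over its probes) and Fzd4 at 1.44. As bounds, Wnt7b was at least 92.5-fold higher in LLC, Fzd6 at least 84.3-fold, Fzd1 at least 8.70-fold, Fzd9 at least 8.40-fold and Dkk1 at least 7.19-fold. Dkk3 was at least 152-fold lower and Axin2 at least 39.7-fold lower. The sizes depend on the background correction. Under normexp, which adds an offset of 50 and so narrows differences of dim probes, the log2 differences were 2.99 for Wnt7b, 3.00 for Fzd6, 1.03 for Fzd1, −3.90 for Dkk3 and −1.56 for Axin2, and among the measured ligands −4.79 for Wnt10a, −2.58 for Wnt10b, 1.89 for Wnt5a and 1.39 for Wnt5b. Line, mouse strain and tumor tissue change together between these arrays and cannot be told apart.

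On the IFN-γ arrays, which share no array with the vehicle comparison, 14 members were at least 2-fold apart between the lines (8 higher and 6 lower in LLC, of 22 with a value, against 15.4% and 13.3% of all genes, or 28.6% in either direction). They were the same genes except Dkk1, which had no value there. Among the 14, Axin2, Dkk3, Fzd1, Fzd6, Fzd9 and Wnt7b have a value only as bounds, not being above background in both lines. As with vehicle, the count is a description and lends no weight to a contrast with all genes. Wnt10a was at −7.06, Wnt10b at −3.85, Wnt5a at 4.49, Wnt5b at 3.61, Wnt11 at 3.18, Fzd2 at −2.47, Fzd4 at 1.97 and Fzd7 at −2.01. Each of these kept the side it had with vehicle. Normexp correction left 10 of the 15 members past 2-fold with vehicle, without Dkk1, Fzd4, Fzd7, Fzd9 and Wnt11, and 12 of the 14 with IFN-γ, without Fzd1 and Fzd9.

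**Figure D2:**
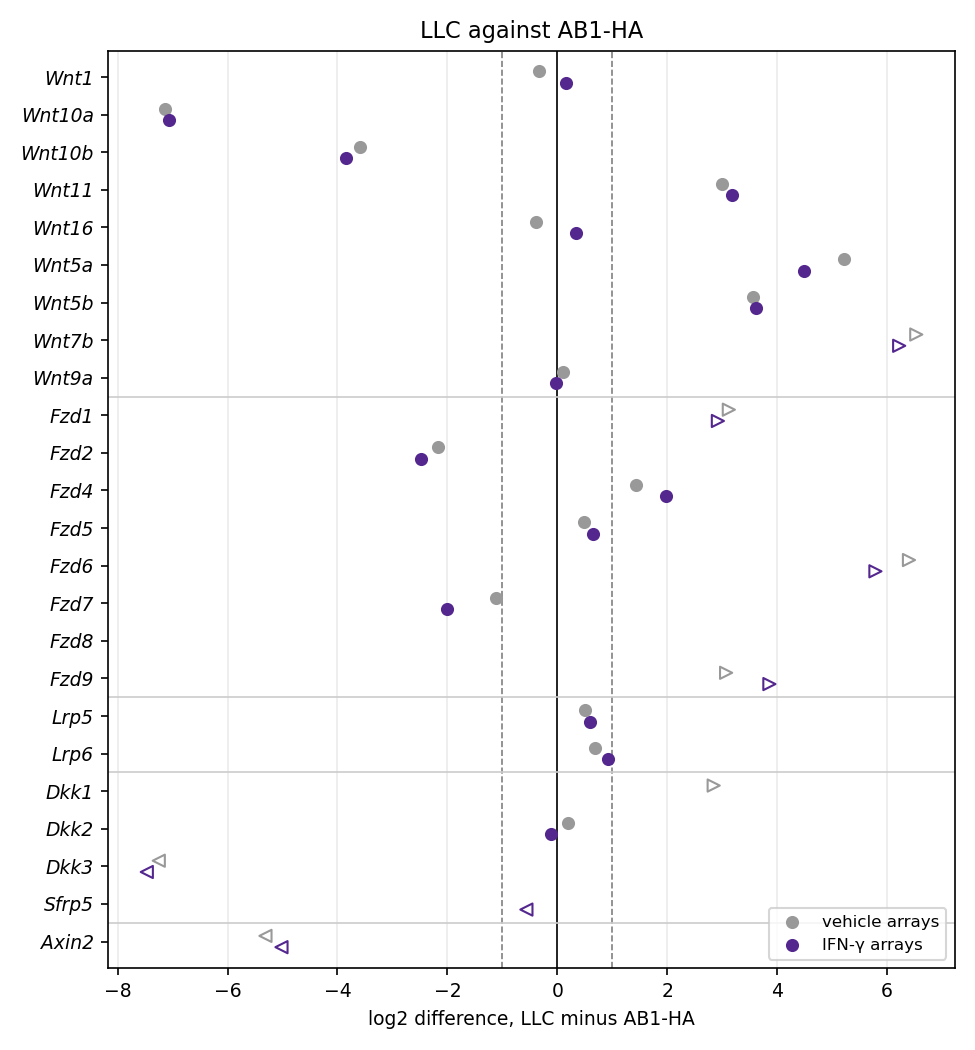
Log2 difference of LLC minus AB1-HA (x axis) for the members, on the vehicle arrays (grey) and on the IFN-γ arrays (purple). Circles are differences between signals above background on both arrays, triangles are bounds, and dashed lines mark 2-fold. Wnt10a, Wnt10b, Fzd2, Fzd7, Dkk3 and Axin2 lie to the left on both, and Wnt5a, Wnt5b, Wnt7b, Wnt11, Fzd1, Fzd4, Fzd6 and Fzd9 to the right.

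Some sequence and position context is given for genes with the contrasts above. RefSeq promoter windows of build GRCm38.p6 were at hand for 27 of the 41 members (30 start sites), and the 250 bases before a start are printed 5′ to 3′ for Dkk1, the member past 2-fold with IFN-γ, for Axin2 and Wnt10b, which were higher in AB1-HA, and for Wnt11, which was higher in LLC. Capitals mark the TCF/LEF core CTTTGA read on either strand (TCAAAG on the other). The windows are chr19:30549497-30549746 (minus strand) for Dkk1, chr11:108920099-108920348 (plus) for Axin2, chr15:98778151-98778400 (minus) for Wnt10b and chr7:98834862-98835111 (plus) for Wnt11.
Dkk1: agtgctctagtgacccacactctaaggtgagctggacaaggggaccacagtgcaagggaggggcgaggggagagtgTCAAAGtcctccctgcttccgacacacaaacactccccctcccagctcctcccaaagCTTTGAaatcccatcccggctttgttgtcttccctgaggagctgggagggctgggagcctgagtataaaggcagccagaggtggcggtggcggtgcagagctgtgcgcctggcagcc
Axin2: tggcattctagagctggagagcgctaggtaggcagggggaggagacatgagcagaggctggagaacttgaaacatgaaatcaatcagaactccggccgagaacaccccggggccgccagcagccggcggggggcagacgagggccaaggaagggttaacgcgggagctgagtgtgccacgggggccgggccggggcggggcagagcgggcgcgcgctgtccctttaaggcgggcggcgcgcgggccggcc
Wnt10b: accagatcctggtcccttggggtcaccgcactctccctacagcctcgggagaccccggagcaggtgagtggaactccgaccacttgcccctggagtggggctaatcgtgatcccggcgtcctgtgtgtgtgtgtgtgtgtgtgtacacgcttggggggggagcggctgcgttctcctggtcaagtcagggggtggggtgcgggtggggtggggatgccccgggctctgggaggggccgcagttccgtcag
Wnt11: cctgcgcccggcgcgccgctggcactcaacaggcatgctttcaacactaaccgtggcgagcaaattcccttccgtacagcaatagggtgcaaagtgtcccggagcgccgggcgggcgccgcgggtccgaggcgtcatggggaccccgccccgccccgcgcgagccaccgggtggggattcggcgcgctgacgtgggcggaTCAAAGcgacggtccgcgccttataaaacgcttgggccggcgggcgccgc
The Dkk1 window holds 2 copies of the core, starting 174 and 117 bases before the start, on opposite strands. The Wnt11 window holds 1, starting 50 bases before the start, while a further listed start of Wnt11 has none. No copy lies in the Axin2 or Wnt10b window, which says only that these letters are not in these 250 bases. Over all promoters the core was found in 13.8% of 32851 windows of this length, and over the members in 4 of 30 (Dkk1, Fzd1, Wnt11 and Wnt5b). Of motifs bound by interferon-activated factors, the GAS element TTCNNNGAA, which reads the same on both strands, was in 1 member window (Wnt5b) and 7.02% of all, and the ISRE core, which is GAAA, then 2 bases of any kind, then GAAA, on either strand, in 0 member windows and 2.98% of all. The motifs were searched separately, and a match is not evidence that a factor binds.

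Several Wnt genes lie beside each other. In the RefSeq order of protein-coding genes, Wnt6 lies beside Wnt10a, Wnt10b beside Wnt1, Wnt3a beside Wnt9a and Wnt9b beside Wnt3. Wnt10a was bright in AB1-HA while its neighbour Wnt6 was not well above background on any array. Wnt9a had 128 and 98.4 intensity units in AB1-HA and 159 and 95.8 in LLC, whereas its neighbour Wnt3a was not well above background on any array. Of the pair Wnt10b and Wnt1, Wnt10b was 12.0-fold lower in LLC with vehicle and Wnt1 1.27-fold lower.

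The IFN-γ arrays were next set against the vehicle arrays within each line. In AB1-HA none of the 18 members with a value was 2-fold apart between the IFN-γ and vehicle arrays, against 4.15% of all genes with a value (2.98% higher and 1.17% lower). The members measured on both arrays ran from −0.89 for Wnt10a to 0.78 for Fzd7 on the log2 scale. Wnt10a went from 2519.8 to 1399 intensity units, which is 1.85-fold lower after scaling, and Fzd5 was at −0.79, Wnt10b at −0.60, Wnt11 at −0.57, Dkk2 at −0.55 and Fzd4 at −0.55. Fzd7, Dkk3 (0.48) and Wnt5a (0.34) were the measured members above 0. The β-catenin target Axin2 was at −0.02 by the probe used, while its dimmer probe was at −1.37, a disagreement of over 2-fold.

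In LLC, 1 of 21 members with a value was at least 2-fold apart, against 5.15% of all genes (3.68% higher and 1.46% lower). This was Dkk1, at least 8.15-fold lower on the IFN-γ array. The bound rests on 1 spot on each array. Under normexp correction the Dkk1 difference was −0.35 on the log2 scale, short of 2-fold. Among members measured on both LLC arrays the differences ran from −0.86 for Wnt10b to 0.61 for Fzd9. Dkk2 was at −0.85, Wnt10a at −0.82, Fzd6 at −0.78, Fzd5 at −0.63 and Wnt9a at −0.54. Wnt10b passed 2-fold at −1.01 under array median and quantile scaling, and Fzd6 at −1.01 under cyclic loess. Other alternatives made these differences smaller, down to −0.21 for Wnt10b, −0.72 for Fzd6 and −0.07 for Wnt9a. Wnt10a ranged from −0.96 to 0.40, so the sign of its LLC difference is not secure. Its LLC signals were dim, at 20.8 and 10.4 intensity units with scanner errors of 3.34 and 3.20. Lrp5 stayed at −0.09 in AB1-HA and 0.00 in LLC, and Lrp6 at −0.46 and −0.21, with the other probe of Lrp6 at −0.47 and −0.18.

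Most measured members had small differences below 0. In AB1-HA 14 of the 17 members measured on both arrays were below 0, with a median of −0.46, where 64.5% of all genes measured on both arrays were below 0 with a median of −0.08. In LLC 16 of 19 were below 0 with a median of −0.39, where 57.6% of all genes were, with a median of −0.06. The comparisons within AB1-HA and within LLC share no array. Of the 15 members measured on all 4 arrays, 11 were lower with IFN-γ in both lines, namely Wnt10a, Wnt10b, Wnt11, Wnt5b, Wnt9a, Fzd2, Fzd4, Fzd5, Lrp5, Lrp6 and Dkk2, and none was higher in both. Over all genes measured on all 4 arrays 38.8% were lower in both. Other scalings moved the median of all measured LLC genes to −0.20 (array median) and −0.10 (quantile and cyclic loess), and that of the members with it, to −0.53, −0.50 and −0.60. Under normexp the medians of the members were −0.25 in AB1-HA and −0.09 in LLC, close in LLC to the −0.05 of all genes. By normexp 8 of the 15 were lower in both. For that count and for the AB1-HA median no normexp value over all genes is given here, so neither can be set against the whole array. Genes of the cell type marker lists, those of the lines' own tissues among them, also differed between the IFN-γ and vehicle arrays. Of 8 fibroblast markers, 6 had a value in LLC, with a median of −0.85. There 5 were below 0 and 3 at least 2-fold lower (Col3a1 at −1.04, Pdgfrb at −1.12 and Col1a1 at a bound of −1.90 on the log2 scale). Over all genes with a value in LLC, 57.4% were below 0 and 1.46% at least 2-fold lower. In AB1-HA 7 fibroblast markers had a value, of which 5 were below 0 and 0 at least 2-fold lower. There the shares over all genes were 63.6% and 1.17%. With so few genes these counts are a description. The summed signal of the fibroblast markers was 54823 intensity units with vehicle and 23540 with IFN-γ in LLC, and 117483 and 103507 in AB1-HA. Lum was not well above background on any array. The summed signal of the 10 mesothelial markers was 62835 and 50668 in AB1-HA and 144904 and 99513 in LLC, with Msln at −1.43 in LLC and Krt18 at −1.52 in AB1-HA. These sums, like the others here, are of unscaled signals and follow the brightest probe. Krt18 alone had 134098 and 92310 in LLC, and Msln alone had 50299 and 38827 in AB1-HA. The sums therefore do not rank the lines as mesothelial. The 5 endothelial markers summed to 2835 and 2874 in AB1-HA and 1516 and 2581 in LLC, with Cdh5 and Tek not well above background on any array. The 9 lung epithelial markers summed to 51.6 and 53.5 in AB1-HA and 58.9 and 69.4 in LLC. The leukocyte gene Csf1r was at 1.74 in LLC by the probe used and at 0.28 by another. The part of these markers in the members' differences was not tested.

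**Figure D3:**
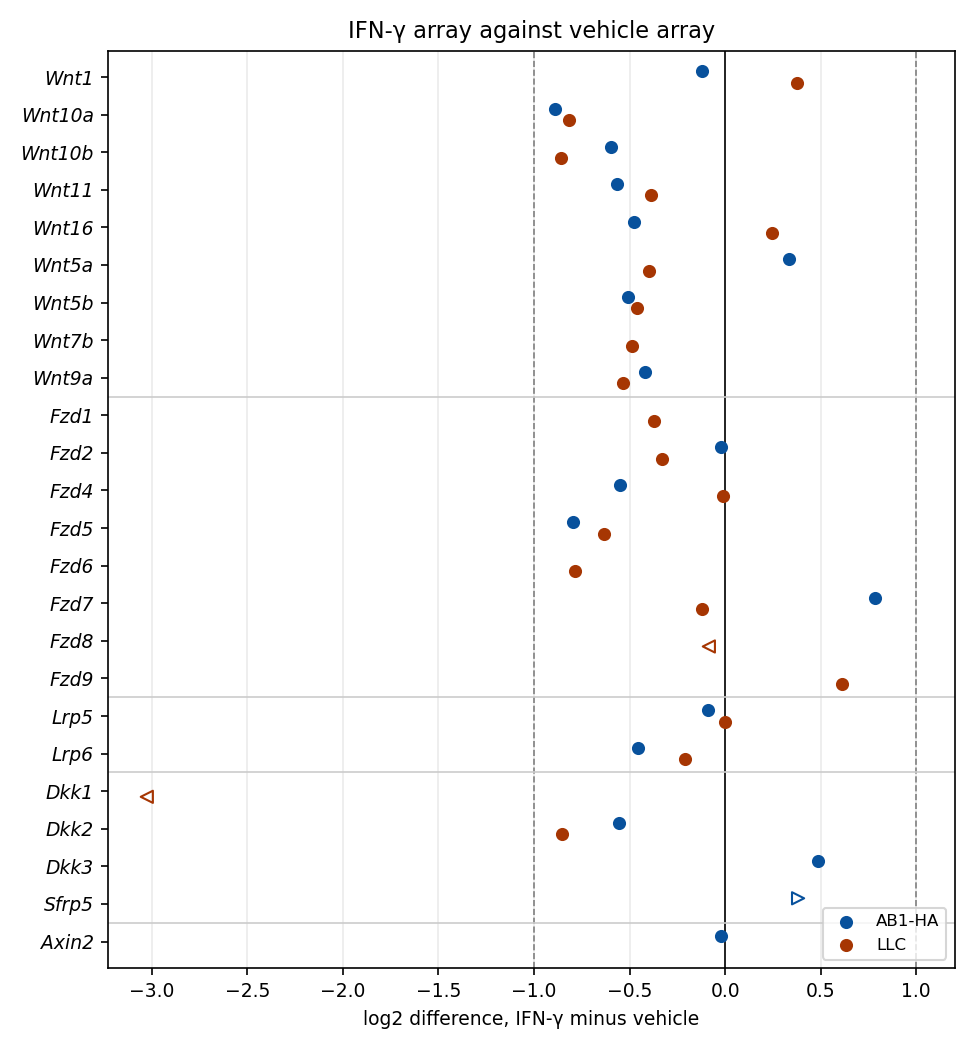
Log2 difference of the IFN-γ array minus the vehicle array (x axis) for the members, in AB1-HA (blue) and LLC (brown). Circles are differences between signals above background on both arrays, triangles are bounds, and dashed lines mark 2-fold. Dkk1 in LLC lies beyond the lines at a bound of −3.03, and most other points lie between 0 and −1.

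The IFN-γ effects of the lines could be set against each other for the 15 members measured on all 4 arrays. None differed by 2-fold between the lines, against 4.23% of all genes measured on all 4 arrays (2.54% higher and 1.69% lower in LLC). The differences of effects, LLC minus AB1-HA, ran from −0.91 for Fzd7 to 0.72 for Wnt16, with Wnt5a at −0.74. Wnt10a (0.07) and Wnt5b (0.05) had nearly the same effect in the lines, although normexp put Wnt10a at 1.26 and Fzd7 passed 2-fold at −1.04 under array median scaling. The Fzd7 value rests on its brighter probe, since the other gave 0.09.

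The other genes of the pathway were read from fixed lists of 81 entries, of which 79 had a named probe: secretion, further receptors, further antagonists, destruction complex and nuclear effectors, planar polarity, and feedback and target genes. With IFN-γ 1 of 55 with a value was at least 2-fold apart in AB1-HA, a share of 1.82% against 4.15% of all genes. In LLC 5 of 59 were, a share of 8.47% against 5.15%. Of these, 2 were higher (3.39% against 3.68% of all genes) and 3 lower (5.08% against 1.46%). With so few genes these counts are a description. Frzb, a secreted antagonist related to the Sfrp proteins, had 348 and 92.8 intensity units in LLC (vehicle, IFN-γ), a log2 difference of −1.72, and was not well above background in AB1-HA. Apcdd1, a membrane-bound inhibitor of the pathway, went from 6750.0 to 2403 in LLC (−1.30) and from 408 to 419.7 in AB1-HA (0.00). Lgr6, a receptor for the Wnt-enhancing R-spondins, had 33.8 in LLC with vehicle and 7.66, not well above background, with IFN-γ, a bound of at least 3.86-fold lower. Its AB1-HA signals were 77.6 and 43.0 (−0.89), and under normexp its LLC difference was −0.79. Among the antagonists with a value in LLC, Dkk1, Frzb and Apcdd1 were at least 2-fold lower, while Notum, Dkkl1 and Dkk2 were not. Notum (0.03) is a secreted enzyme that removes the lipid from Wnt proteins. Dkkl1 (0.37) is a relative of the Dkk proteins, and Dkk2 was at −0.85. That is 1 of 2 antagonist members and 2 of 4 further antagonists, against 1.46% of all genes lower in LLC. Dkk1 has a value only through the vehicle array and was at −0.35 under normexp, so these few genes are a description. Toward higher signals, Dvl3, a Dishevelled protein that relays the signal from Frizzled, went from 1229.6 to 3165 in LLC (1.55) and from 3835 to 3651 in AB1-HA (−0.11). Celsr3, a planar polarity cadherin, had a bound of at least 2.24-fold in LLC that fell short of 2-fold under quantile (0.97), cyclic loess (0.94) and normexp (0.98) processing on the log2 scale. In AB1-HA Prickle2, a planar polarity protein, was at −1.12 (32.6 and 15.5), and at −0.98 under cyclic loess and −0.07 under normexp.

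The lines were compared for the listed genes in the same way. On the vehicle arrays 60 listed pathway genes had a value, and 14 of them passed 2-fold toward LLC and 7 toward AB1-HA, a share of 35.0% that lies close to the 32.5% of all genes. Ror2, the receptor tyrosine kinase that binds Wnt5a, had 1123 and 719 intensity units in LLC and was not well above background in AB1-HA (at least 117-fold higher with vehicle). Tcf7l1, a TCF factor that acts mostly as a repressor, had 1935 and 1206 in LLC and was not well above background in AB1-HA (at least 202-fold). The Groucho-type co-repressors Tle2 (2.68) and Tle4 (2.25), Apc2 (2.51), Apcdd1 (3.84) and Myc (2.01) were also higher in LLC on the log2 scale. The Groucho-type genes did not move together. Tle1 was lower in LLC, at −1.41 by the probe used and −1.09 and −1.21 by its other probes, and Tle3 was at 0.04. The bounds for Frzb and for the planar polarity cadherin Celsr1 were 36.4-fold and 13.4-fold higher. Under normexp Ror2 was at 3.15, Tcf7l1 at 3.79, Frzb at 2.10, Celsr1 at 1.21 and Tle4 at 0.51, the last short of 2-fold. Porcn, the enzyme that attaches the lipid to Wnt proteins, was lower in LLC at −2.00 (1796 and 1932 in AB1-HA, 518 and 325 in LLC). Edn1 and Prickle2 were lower in LLC by bounds of at least 13.4-fold and 5.38-fold, and under normexp Edn1 was at −1.32 and Prickle2 at −0.65, the latter short of 2-fold. Of the 18 listed feedback and target genes, 14 had a value between the vehicle arrays. There 2 passed 2-fold toward LLC (Myc and Snai2) and 1 toward AB1-HA (Edn1), a share of 21.4% against 32.5% of all genes. On the IFN-γ arrays 4 of 14 passed toward LLC and 2 toward AB1-HA, 42.9% against 28.6%. Other probes of Cd44 (3.21 and a bound of 2.26), Birc5 (−1.15 and −1.12) and Ccn4 (−1.55) passed 2-fold with vehicle where the probe used did not. Probes of the TCF genes and Gsk3b disagreed as well. Tcf7l2 was at 0.33 by the probe used and at 2.35 and a bound of 2.84 by others. Gsk3b was at 0.93 by the probe used and at 1.83 and 0.55 by others. Tcf7 was at 1.12 by the probe used and had a bound of 0.43 by another. The feedback genes Nkd1 and Sp5 were not well above background on any array, and Nkd2 was at −0.24 between the vehicle arrays.

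**Figure D4:**
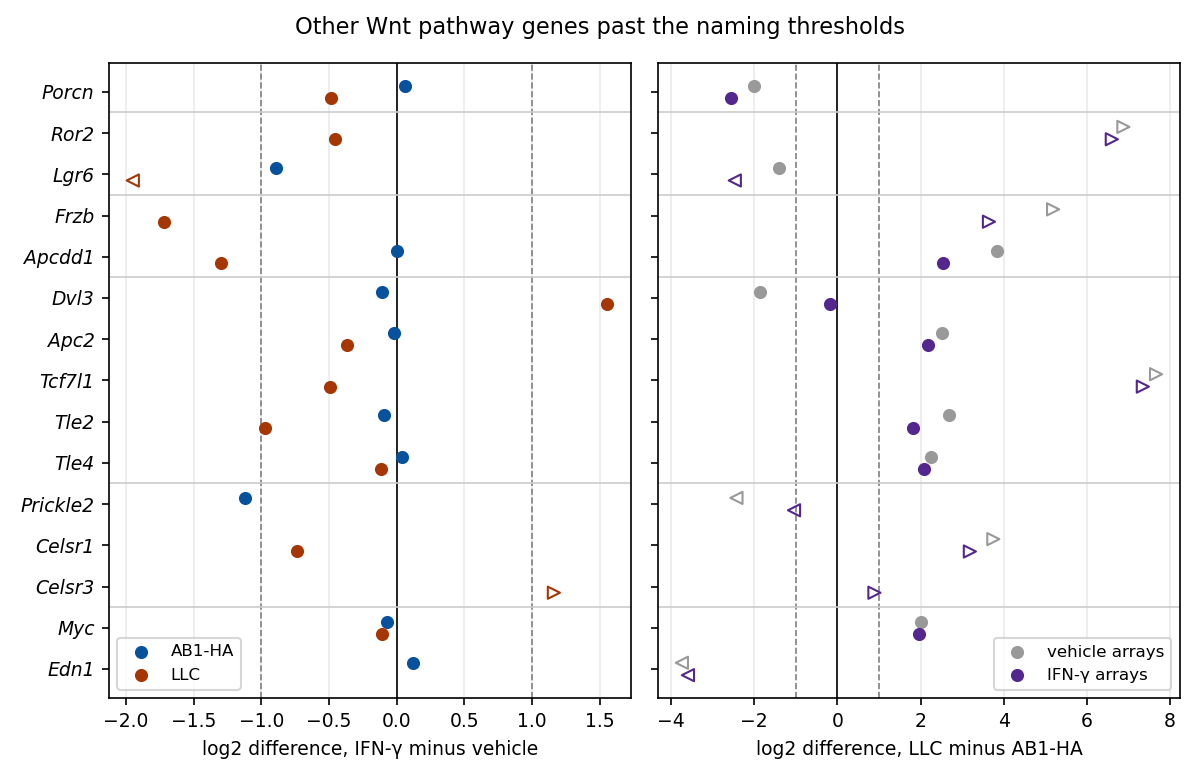
Log2 differences of the 15 listed pathway genes that were at least 2-fold apart with IFN-γ or at least 4-fold apart between the vehicle arrays, with IFN-γ minus vehicle on the left (AB1-HA blue, LLC brown) and LLC minus AB1-HA on the right (vehicle grey, IFN-γ purple). Circles are differences between signals above background on both arrays, triangles are bounds, and dashed lines mark 2-fold. Frzb, Apcdd1 and Lgr6 lie below −1 in LLC on the left, and the bounds of Ror2 and Tcf7l1 are the highest in the right panel.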

How the data were processed

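Intensity values were deposited by the authors as 4 scanner files, whose background was subtracted by Agilent Feature Extraction (version 10.7.1.1), per the file headers, with no scaling between arrays. A further table of log2 values was deposited by the authors. No source used here says how that table was made. Each of its columns correlated at 0.999 with 75th-percentile-scaled, probe-centred log2 signals, in the direction of the signal, with column medians of 0.11, −0.08, −0.13 and 0.08. Marks for signals above background are 0 or 1 values set by the scanner software, per the file headers.

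Control spots and outlier spots (166 to 201 per array, none of a member) were left out, and spots of a probe were averaged on the log2 scale. No spot was saturated, and 57.5% to 58.2% of 39419 probes were well above background. A share of 0.5 of a probe's kept spots had to carry the mark for the probe to count as well above background. Unversioned accessions were matched to a RefSeq table of GRCm38.p6, which named 26581 probes. The array annotation is of mm9, so the table's coordinates were not used for probes. For genes with several probes (8 members), the probe with the highest mean was used, and a gene's background mark was that of this probe. For no member did another probe pass on an array where the probe used did not. Between arrays, repeat spots of 1 probe had a median SD of the log2 difference of 0.063 in AB1-HA and 0.041 in LLC, which covers spot noise alone.

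The text names every member, gives 4 signals for members at least 2-fold apart in any comparison and for Lrp5, Lrp6 and Axin2, and names other listed pathway genes at 2-fold with IFN-γ or 4-fold between vehicle arrays. Cell type markers and Irf1 are named as checks. Notum, Dkkl1, Snai2, Nkd1, Nkd2, Sp5, Cd44, Birc5, Ccn4, Tle1, Tle3, Tcf7, Tcf7l2 and Gsk3b were chosen after their values were seen. Members, lists and comparisons were chosen with earlier results of these data known. Each array enters 2 comparisons. The alternatives were 3 other scalings, normexp on median spot signals (offset 50), the authors' table, a stricter background filter and none, the mean over probes, and outlier spots kept. Python 3.11.15, numpy 2.4.6, pandas 2.3.3, matplotlib 3.10.9, R 4.3.3 and limma 3.58.1 were used.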

Additional observations from a re-analysis of the deposited data

Results flagged for a closer look

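Among the 15 members measured on all 4 arrays, 4 had IFN-γ differences of opposite sign in the lines, 1 array against 1 array in each, and the difference between the lines was not tested. On the log2 scale, Fzd7 was at 0.78 in AB1-HA and −0.12 in LLC. Wnt5a was at 0.34 in AB1-HA and −0.40 in LLC. Wnt16 was at −0.48 in AB1-HA and 0.25 in LLC, and Wnt1 at −0.12 and 0.37. None of the 8 values reached 2-fold, and the other probe of Fzd7 was above 0 in both lines (0.21 and 0.29). Some of the signals were dim. Wnt5a had 14.7 and 19.0 intensity units in AB1-HA (vehicle, IFN-γ), with scanner errors of 4.49 and 4.33. Wnt16 had 22.2 and 23.1 in LLC, with errors of 4.45 and 4.59. The signs of these 2 differences are thus not secure.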

How the results depend on the processing

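The count of members at least 2-fold apart with IFN-γ in AB1-HA stayed at 0 under all 9 alternatives. In LLC the count of 1 became 2 under array median, quantile and cyclic loess scaling, 3 without a background filter (with Wnt4 and Sfrp4, which were not well above background), and 0 under normexp and with the filter that asks for a signal on every array compared, since Dkk1 then has no value. That filter also left 8 members past 2-fold between the lines with vehicle and 8 with IFN-γ. Of differences between the lines' IFN-γ effects, 1 passed 2-fold under array median scaling (Fzd7), 1 under normexp (Wnt10a) and 4 without a filter. Except where a rule of construction is named, the cause was not tested. Among the members and the 15 pathway genes recomputed under every alternative, none past 2-fold turned its sign. The other listed genes were not recomputed one by one. Depth here means signal over background: genes near the lowest measurable signal have bounds or small differences that a change of background correction can move. No paired analysis was possible because each group has 1 array and the labels give no replicate numbers.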
